A study of Mus musculus with 96 samples.

Results

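The genes described here are 9 parts of the machinery by which aldosterone controls sodium uptake in the distal kidney tubule. They are the 3 subunits of the epithelial sodium channel ENaC (Scnn1a, Scnn1b and Scnn1g), the mineralocorticoid receptor Nr3c2, the steroid dehydrogenase Hsd11b2, the kinase Sgk1, the ubiquitin ligase Nedd4l, the membrane protease Prss8 and the hormone-induced regulator Tsc22d3. They were picked by symbol from a table of 54532 mouse genes, each symbol matched 1 row, and all 9 passed the filter on low values. The study profiled glomeruli and 14 kinds of hand-dissected tubule segment from untreated male C57BL/6 mice, aged 6 to 8 weeks, on normal chow and free drinking water. PolyA RNA of each piece was sequenced, 93 samples in all (87 tubule pieces and 6 of glomeruli). They came from 53 mice, counting each mouse number in each segment as a separate mouse. Pieces of 1 mouse were averaged, so n counts mice: 10 groups held 3, ATL and OMCD held 4, and PTS2, CTAL and CCD held 5.

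The groups are named by the study's abbreviations. GL is the glomerulus. PTS1, PTS2 and PTS3 run along the proximal tubule, and DTL1, DTL2 and DTL3 are thin descending limbs of short loops, of long loops in the outer medulla and of long loops in the inner medulla. ATL is the thin ascending limb, and MTAL and CTAL are the medullary and cortical thick ascending limbs. DCT is the distal convoluted tubule and CNT the connecting tubule. CCD, OMCD and IMCD are the cortical, outer medullary and inner medullary collecting ducts.

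ENaC lets sodium enter through the luminal membrane of principal and connecting tubule cells, and its alpha, beta and gamma subunits assemble into 1 pore. Aldosterone binds the mineralocorticoid receptor, which then acts on genes such as Sgk1; the kinase phosphorylates the ligase encoded by Nedd4l and so keeps it from removing channels from the membrane. Glucocorticoids bind the same receptor, and the enzyme encoded by Hsd11b2 inactivates them in aldosterone target cells.

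Levels are in TPM, a transcript's share of its library scaled per transcript length, so that genes can be compared within a sample; TPM keep no read depth, so no counting error can be given. Differences are on the scale of log2(TPM + 1), which understates changes of low genes. They were tested with limma across 33793 genes, with Benjamini-Hochberg adjustment, and a gene was called at an adjusted p under 0.05 and a log2 difference of at least 1. The p-values measure the spread between mice. In the main fit each gene's spread was estimated once over all 15 groups, so an SE also draws on groups outside the comparison. Scnn1a, for instance, had SDs of 0.086 in DCT and 0.082 in CNT on the log2 scale, but an SE of 0.268 for their difference. A segment is a mixture of cells, and in these bulk samples fewer cells of a type and less RNA per cell cannot be told apart.

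Some libraries stood apart. Of 1740 odorant and vomeronasal receptor genes, 353 to 929 reached 1 TPM in the pieces of GL and 704 to 860 in DTL1. They numbered 119 to 424 in DTL2, 454 to 575 in DTL3 and 17 to 659 in ATL. The range was 73 to 253 in OMCD, 3 to 144 in IMCD and 6 to 48 in PTS1, and at most 5 in every other group. The F-test, the count of groups that a gene's highest group exceeded, and the correlations across segments are also given without the first 5 of these groups.

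All 9 genes differed among the 15 groups by limma's moderated F-test, with adjusted p from 2.67e-48 for Scnn1g to 1.15e-16 for Tsc22d3. The same test called 93.9% of all genes. Without GL, DTL1, DTL2, DTL3 and ATL it called 29718 of 33793 genes.

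Beta and gamma ENaC had group means above 2 TPM in 4 consecutive segments only: DCT, CNT, CCD and OMCD. Scnn1b (ENSMUSG00000030873) measured 307, 333 and 282 TPM in the 3 DCT mice and 1173, 1210 and 1063 TPM in the 3 CNT mice. The 5 CCD mice held 1274, 1261, 1363, 1565 and 1199 TPM, and the 4 OMCD mice 727, 669, 719 and 647 TPM. No mouse of DCT overlapped OMCD, and no mouse of OMCD overlapped CNT or CCD. Elsewhere the mean was at most 1.85 TPM (DTL1); Scnn1b was listed at 0 in all 3 mice of PTS3 and all 3 of MTAL. In the ordered means CNT exceeded OMCD by 0.73 ± 0.22 (SE, log2; limma adjusted p = 0.00988) and OMCD exceeded DCT by 1.19 ± 0.22 (adjusted p = 2.13e-05), while CCD and CNT were not separated (0.21 ± 0.21, adjusted p = 1.0).

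Scnn1g (ENSMUSG00000000216) followed the beta subunit closely. It measured 340, 367 and 324 TPM in DCT, 1026, 899 and 927 TPM in CNT, and 1095, 1033, 1023, 1086 and 1037 TPM in CCD. The OMCD mice held 536, 593, 696 and 654 TPM, between the DCT mice and the CNT mice with no overlap. All other groups averaged 0.687 TPM or less, and PTS3 was listed at 0 in every mouse. Across the 53 mice the levels of Scnn1g and Scnn1b on the log2 scale had a Pearson r of 0.997. That value reflects the difference between segments: for deviations from the group means the r over the same mice was 0.246.

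Scnn1g and Scnn1b lie next to each other on mouse chromosome 7, with 1 non-coding gene (Gm36848) and 0 protein-coding genes between them in the RefSeq annotation. Their start regions are shown because the neighbours have near-identical patterns. Each run holds 250 bases before and 50 after a RefSeq transcript start in build GRCm38.p6, chr7:121734229-121734528 on the plus strand for Scnn1g and chr7:121864788-121865087 on the plus strand for Scnn1b; capitals mark a match to CCAGNNNNNCCAG, a motif of the collecting duct factor Tfcp2l1, searched on both strands.
Scnn1g: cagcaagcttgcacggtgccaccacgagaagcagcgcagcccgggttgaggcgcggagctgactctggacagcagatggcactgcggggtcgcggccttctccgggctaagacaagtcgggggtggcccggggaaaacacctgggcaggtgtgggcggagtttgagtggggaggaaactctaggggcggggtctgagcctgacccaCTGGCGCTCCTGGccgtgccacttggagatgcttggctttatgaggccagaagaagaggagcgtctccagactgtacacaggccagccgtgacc
Scnn1b: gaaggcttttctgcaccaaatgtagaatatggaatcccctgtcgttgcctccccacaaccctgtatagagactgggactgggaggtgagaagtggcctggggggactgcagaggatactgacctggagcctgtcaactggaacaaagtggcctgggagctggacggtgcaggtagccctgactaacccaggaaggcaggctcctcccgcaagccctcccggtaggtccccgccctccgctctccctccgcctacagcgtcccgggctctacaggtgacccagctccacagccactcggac
The match in the Scnn1g run is on the minus strand and begins at -44 from the start; the Scnn1b run has no match to these letters. Of 32851 RefSeq start regions of the same length, 3.54% held the motif. The grainyhead motif AACCGGTT (in 0.146% of start regions) and the TATA box TATAAA (13.6%) were searched as well and matched neither run. Start regions were found for 5 of the 9 genes (Scnn1b, Scnn1g, Nr3c2, Sgk1 and Tsc22d3).

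The alpha subunit reached further upstream. Scnn1a (ENSMUSG00000030340) measured 151, 170, 135, 178 and 146 TPM in the 5 CTAL mice, where beta and gamma averaged 0.553 ± 0.126 and 0.344 ± 0.127 TPM (SD, n = 5). In MTAL the 3 mice held 56.7, 110 and 41.4 TPM of Scnn1a. The alpha subunit therefore made up 99.4% ± 0.134 (SD, n = 5) of the summed subunit TPM in CTAL. In DCT its share was 25.3% ± 1.10 (n = 3), in CNT 15.5% ± 1.40 (n = 3), in CCD 15.4% ± 1.3 (n = 5) and in OMCD 12.9% ± 1.62 (n = 4). The DCT markers Slc12a3 and Pvalb summed to 0.21 to 0.465 TPM in the CTAL mice and the connecting tubule markers Calb1 and Trpv5 to 0.135 to 0.81 TPM, both near 0. The principal cell list (Aqp2, Aqp3, Avpr2, Fxyd4) summed to 49.99 to 92.4 TPM there, most of it Avpr2 (61.7 ± 13.8 TPM), with Aqp2 at 5.44 ± 1.28 TPM. The intercalated cell list summed to 138 to 230 TPM in the CTAL mice, most of it the proton pump subunit gene Atp6v1b1 (173 ± 37.9 TPM). The part of such cells in the CTAL level of Scnn1a was not tested.

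Scnn1a spanned a narrower range along the distal tubule than its partners. The DCT mice held 208, 234 and 218 TPM, the CNT mice 367, 374 and 408 TPM and the CCD mice 489, 443, 421, 419 and 405 TPM. The 4 OMCD mice held 154, 192, 206 and 226 TPM, which overlapped both CTAL and DCT. In the order of means CNT was above DCT (0.80 ± 0.27, SE, limma adjusted p = 0.0444). The p threshold was missed when any 1 mouse of these groups was left out. DCT and OMCD were not separated (adjusted p = 0.557), nor were OMCD and CTAL (0.258). CTAL exceeded MTAL by 1.28 ± 0.24 (adjusted p = 0.000202). A low level was present in the later proximal tubule, 9.19 ± 2.29 TPM in PTS2 (SD, n = 5) and 8.93 ± 2.91 TPM in PTS3 (n = 3), against 0.33 ± 0.251 TPM in PTS1 (n = 3). All 3 subunits were near 0 in IMCD, at 0.526 ± 0.0687, 0.239 ± 0.0976 and 0.358 ± 0.448 TPM for alpha, beta and gamma (n = 3), although the water channel Aqp2, a principal cell marker, averaged 27393 ± 2113 TPM in the same mice.

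**Figure D1:**
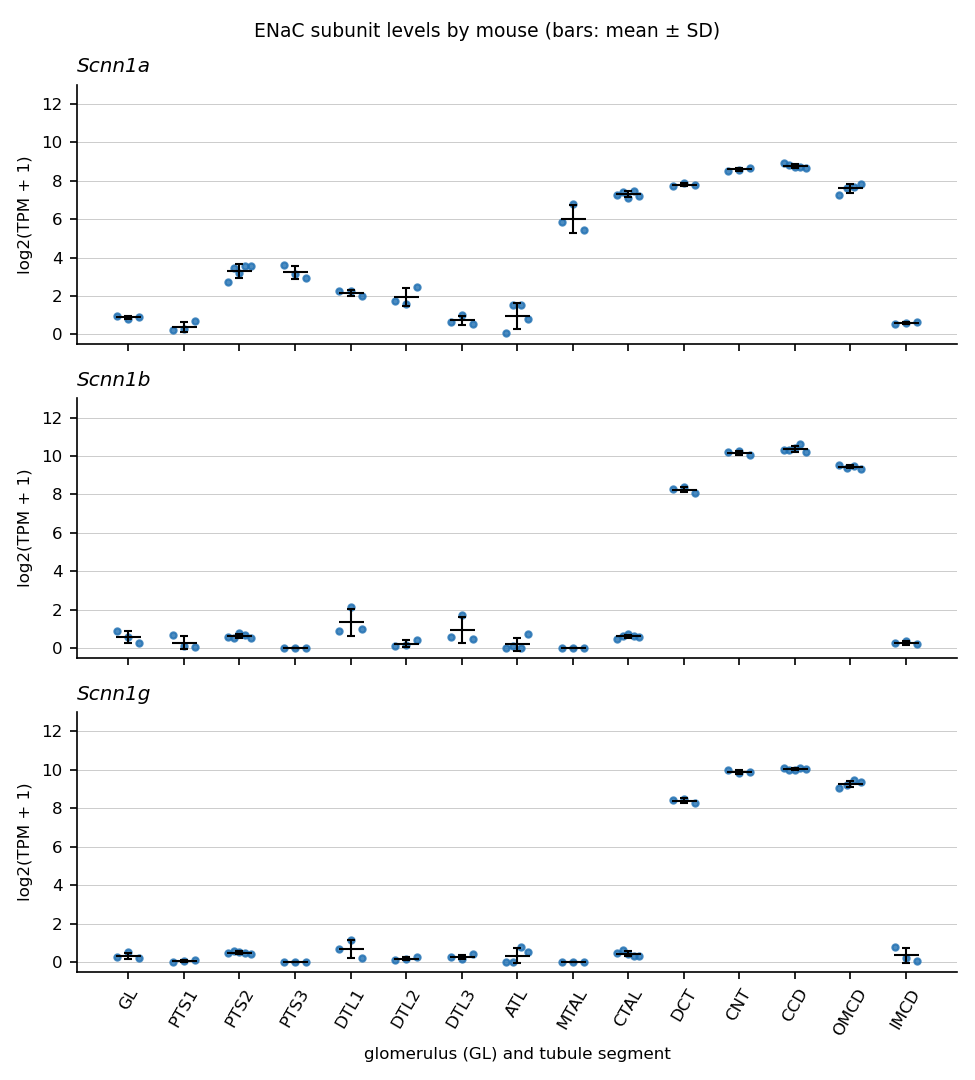
Level of each ENaC subunit as log2(TPM + 1) in the 15 groups; points are mice and the black marks give the mean ± SD. Scnn1b and Scnn1g are high only in DCT, CNT, CCD and OMCD, whereas Scnn1a is also high in MTAL and CTAL, where it averaged 69.5 and 156 TPM.

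Nr3c2 (ENSMUSG00000031618), the receptor, was low compared with the channel and broader in its distribution. It measured 26.3, 24.2 and 26.4 TPM in DCT, 54.7, 50.6 and 55.0 TPM in CNT and 66.1, 61.2, 61.8, 66.1 and 71.0 TPM in CCD. The OMCD mice held 70.3, 65.6, 82.9 and 74.0 TPM and overlapped CCD, and OMCD, CCD and CNT were not separated in order (adjusted p = 0.653 and 1.0). Next came DTL2 at 17.6 ± 1.15 TPM (SD, n = 3), CTAL at 16.0 ± 2.76 TPM (n = 5) and IMCD at 14.7 ± 6.66 TPM (n = 3), with 22.3, 11.95 and 9.85 TPM in its mice. The proximal groups were lowest, from 1.61 ± 0.0912 TPM in PTS1 down to 0.597 TPM in PTS2.

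The balance between the mineralocorticoid receptor and the glucocorticoid receptor Nr3c1 differed in direction between CTAL and DCT. Measured as the ratio of TPM + 1 (geometric mean over mice), Nr3c2 stood at 2.18 times Nr3c1 in DCT, 4.32 times in CNT, 5.04 times in CCD and 3.5 times in OMCD. The ratio was below 1 in the other 11 groups: 0.421 in CTAL, 0.381 in IMCD and 0.0643 in PTS2. In IMCD the 3 mice did not agree, with log2 ratios from -2.15 to 0.05. At the border of CTAL and DCT, Nr3c1 was lower in DCT by a log2 difference of -1.72 ± 0.18 (SE, limma adjusted p = 4.29e-10). Nr3c2 differed by 0.66 ± 0.27 (adjusted p = 0.164), with no overlap of mice. Nr3c2 passed the p threshold, but not the size threshold, under some alternatives. These were every piece as a sample (0.0313), only these groups in the fit (0.0165) and leaving out GL, DTL1, DTL2, DTL3 and ATL (0.00729).

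Hsd11b2 (ENSMUSG00000031891), the enzyme that protects the receptor from glucocorticoids, had the highest levels of the 9 genes. The CNT mice measured 3480, 3429 and 3140 TPM and the CCD mice 3571, 3528, 3687, 3803 and 3382 TPM. The OMCD mice measured 1991, 2448, 2926 and 2599 TPM, all below every CNT mouse, though the difference of CNT over OMCD in the fit was 0.44 with adjusted p = 0.118. DCT held 286, 277 and 271 TPM, and IMCD, next in order, 6.34, 1.68 and 3.11 TPM. CTAL averaged 2.25 ± 0.621 TPM (SD, n = 5) and PTS3 was listed at 0 in all mice. Hsd11b1, the related enzyme that works in the opposite direction and regenerates active glucocorticoid, was instead highest in PTS3, at 2779 TPM on average.

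In DCT the presence of Nr3c2 above Nr3c1 went with Hsd11b2 at 278 ± 7.78 TPM, a level below that of CNT in every mouse. That SD is between mouse means, each over 2 pieces, and hides a wider spread between pieces: Hsd11b2 measured 202 and 370 TPM in the pieces of mouse 1, 304 and 250 TPM in mouse 2, and 108 and 433 TPM in mouse 3. The pieces of mouse 3 also differed in Scnn1b (207 and 357 TPM) and Scnn1g (217 and 430 TPM), but not in this way in Scnn1a (213 and 223 TPM). The connecting tubule list of Calb1 and Trpv5 summed to 5248 to 9034 TPM in DCT, above its 1195 to 1883 TPM in CNT, so this list did not tell connecting tubule from DCT cells here. The DCT pieces also held Aqp2 at 119 ± 28.9 TPM and an intercalated cell list summing to 950 to 1050 TPM, against 6287 to 6659 TPM in CNT. The part of such cells in the DCT values of Hsd11b2, Scnn1b and Scnn1g was not tested.

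Sgk1 (ENSMUSG00000019970), a kinase induced by aldosterone, glucocorticoids and cell shrinkage, did not follow the channel. It was highest in IMCD, where ENaC was near 0, with 1114, 1722 and 1606 TPM. ATL followed with 1334, 448, 1455 and 1195 TPM and GL with 924, 1138 and 1068 TPM. CNT held 447, 523 and 1199 TPM. No neighbouring pair of groups in the Sgk1 order was separated at adjusted p under 0.05.

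Sgk1 also had the widest spread between mice of the 9 genes in CNT, CCD and OMCD, with SDs of 57.3%, 81.9% and 58.5% of the mean, though not in DCT (7.81%). The 5 CCD mice held 287, 225, 518, 68.8 and 921 TPM and the 4 OMCD mice 441, 244, 236 and 83.0 TPM. The lowest and highest CCD mice bracketed every OMCD mouse, while Scnn1b in the same CCD mice stayed between 1199 and 1565 TPM. Pieces of 1 mouse were close in some mice: 934 and 908 TPM in CCD mouse 5, 504 and 532 TPM in CCD mouse 3, and 1141 and 1256 TPM in CNT mouse 3. In others they lay further apart: 499 and 383 TPM in OMCD mouse 1, 92.7 and 73.3 TPM in OMCD mouse 4, and 498 and 395 TPM in CNT mouse 1. The deviations of Sgk1 from its group means had a Pearson r of 0.035 with those of Scnn1a and 0.158 with those of Tsc22d3 over 53 mice, given as descriptions. Mice of different segments were treated as different animals, so these values were not followed along 1 kidney.

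Tsc22d3 (ENSMUSG00000031431), also called GILZ, is induced by glucocorticoids and aldosterone. IMCD held 435, 930 and 696 TPM, above GL (288, 205 and 257 TPM) by 1.39 (limma adjusted p = 0.000609), and was the only group of any member to exceed all 14 others. ATL held 187, 446, 143 and 230 TPM, and its highest mouse lay above the lowest IMCD mouse. In DCT and CNT the level was 60.2 ± 6.44 and 59.7 ± 7.49 TPM (SD, n = 3 each), and PTS1 was lowest at 32.8 ± 3.93 TPM. DTL1 had 260, 160 and 171 TPM, in libraries rich in odorant and vomeronasal receptor genes, as given above.

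Start regions of both hormone-induced genes are shown because they hold letters of the element bound by the mineralocorticoid and glucocorticoid receptors. They are from RefSeq, build GRCm38.p6: 1 of 6 starts of Sgk1, picked because it holds the full element, chr10:21993640-21993939 on the plus strand, and 1 of 3 starts of Tsc22d3, picked because it holds an arm, chrX:140600473-140600772 on the minus strand, both written in the direction of transcription. Capitals mark AGAACA, a single arm of the element, read on either strand, and in Sgk1 also the full element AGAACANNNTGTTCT, which contains 2 matches to the arm, 1 on each strand.
Sgk1: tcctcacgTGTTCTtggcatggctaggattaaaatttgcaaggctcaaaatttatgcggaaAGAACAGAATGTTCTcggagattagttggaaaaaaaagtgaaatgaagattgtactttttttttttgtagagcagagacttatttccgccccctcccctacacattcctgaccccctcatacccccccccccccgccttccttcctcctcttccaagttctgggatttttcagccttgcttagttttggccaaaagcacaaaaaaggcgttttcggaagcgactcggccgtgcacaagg
Tsc22d3: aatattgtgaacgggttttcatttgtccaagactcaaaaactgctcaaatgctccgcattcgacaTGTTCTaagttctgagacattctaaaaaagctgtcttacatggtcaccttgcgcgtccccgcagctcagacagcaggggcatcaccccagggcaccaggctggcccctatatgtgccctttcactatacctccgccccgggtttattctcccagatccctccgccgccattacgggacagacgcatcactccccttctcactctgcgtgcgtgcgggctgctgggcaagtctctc
The full element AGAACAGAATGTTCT in Sgk1 begins at -189 from this start, and a separate arm at -242; the arm of Tsc22d3 begins at -185. The full element occurred in 3 of 32851 start regions (0.00913%), against 19.0% for the single arm. Of the 6 starts of Sgk1, 3 held the arm and 1 the full element, and of the 3 starts of Tsc22d3, 1 held the arm and 0 the full element. Counted per gene, so that a gene with many starts has more chances, the arm was in at least 1 start of 62.5% of the 24 genes with 6 starts and of 39.7% of the 721 genes with 3, and the full element was in 3 of 27025 genes. The table gives 1 TPM per gene, so it was not seen which start was used in any segment.

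Nedd4l (ENSMUSG00000024589), the ligase that marks ENaC for removal, was highest in the segments richest in ENaC. It measured 322, 289, 326, 354 and 308 TPM in CCD, 240, 261, 288 and 273 TPM in OMCD and 230, 245 and 230 TPM in CNT. Every mouse of those segments lay above every mouse of the other groups; the next group, DTL1, held 111, 124 and 84.4 TPM, and CNT exceeded it by 1.15 (limma adjusted p = 3.31e-08). DCT, with abundant ENaC, did not share this: its 63.5, 58.6 and 58.2 TPM overlapped the 55.0 to 65.2 TPM of CTAL.

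Prss8 (ENSMUSG00000030800), the protease prostasin that activates ENaC, was highest outside the channel segments. The 5 PTS2 mice held 462, 670, 485, 675 and 544 TPM, the PTS3 mice 464, 389 and 464 TPM and the PTS1 mice 393, 412 and 357 TPM. The 3 proximal groups were not separated in order, and PTS1 exceeded the next group, DTL2 (180 ± 1.53 TPM, SD, n = 3), by 1.10 (limma adjusted p = 0.000138). Among the channel segments the means ran from 62.7 ± 7.21 TPM in DCT through 115 ± 1.26 in CNT and 143 ± 4.99 in CCD to 173 ± 20.3 in OMCD. GL was lowest, at 4.15, 2.75 and 1.15 TPM.

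**Figure D2:**
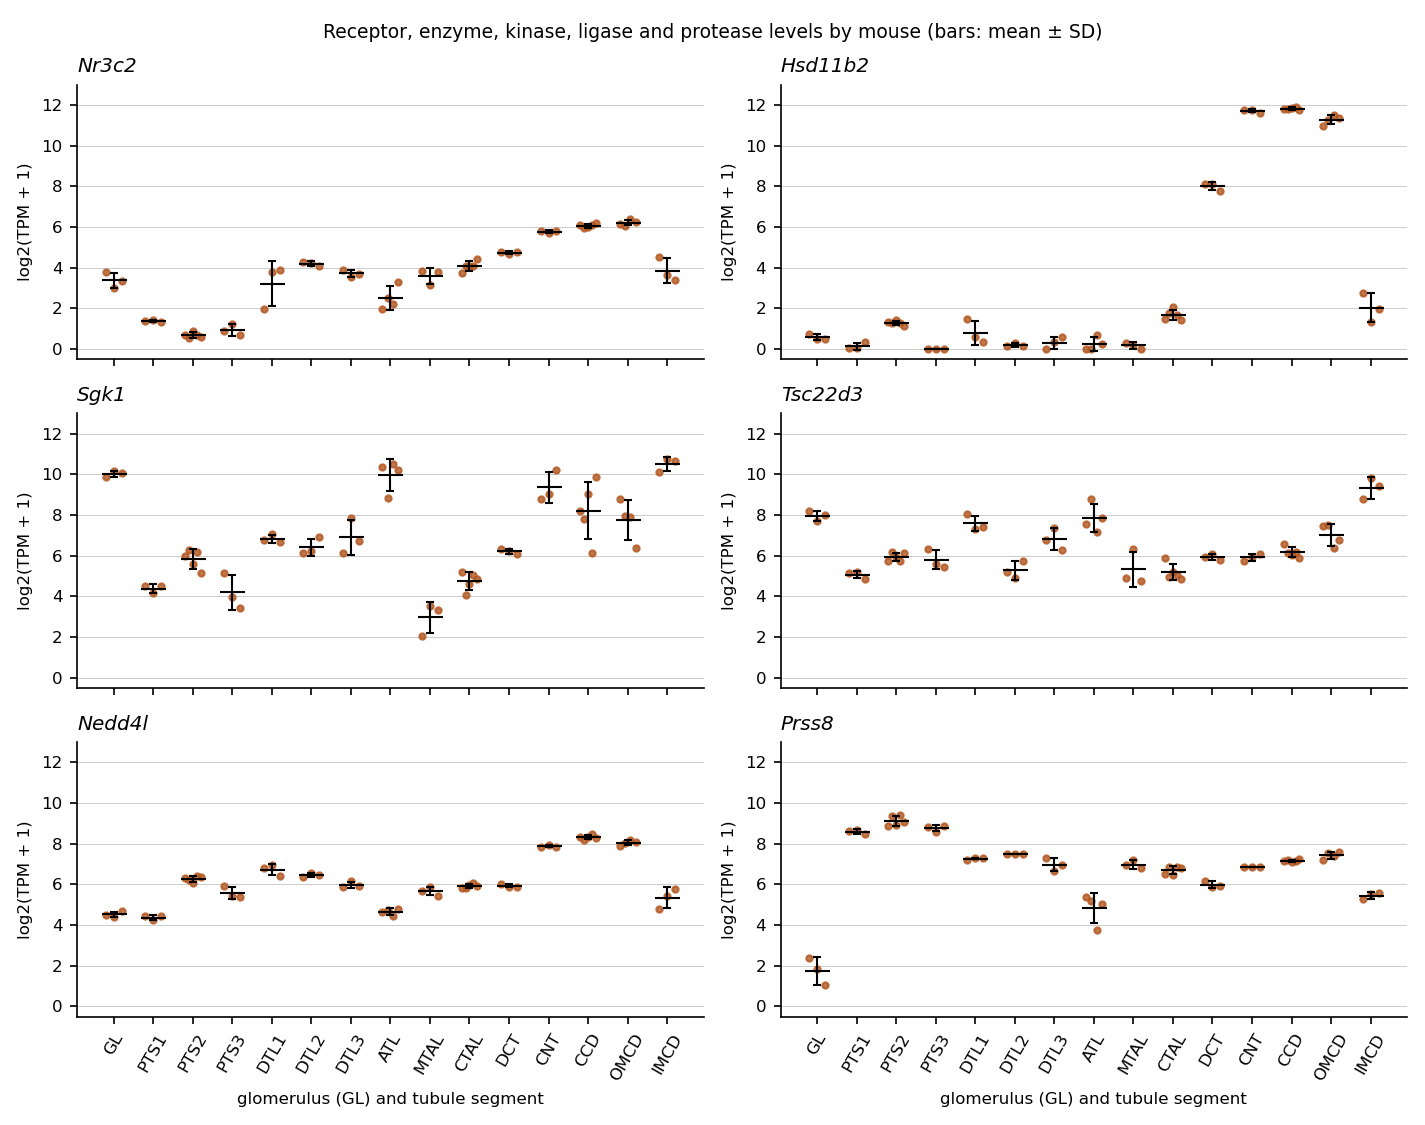
Level of the other 6 genes as log2(TPM + 1) in the 15 groups; points are mice and the black marks give the mean ± SD. Hsd11b2 is high in the segments with beta and gamma ENaC, Sgk1 and Tsc22d3 are highest in IMCD (1481 and 687 TPM), Nedd4l in CCD (320 TPM) and Prss8 in PTS2 (567 TPM).

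The highest group of a gene exceeded 12 of the 14 other groups at adjusted p under 0.05 and a log2 difference of at least 1 for Scnn1a (all but CNT and DCT), Scnn1b, Scnn1g and Hsd11b2 (all but CNT and OMCD), Nr3c2 (all but CCD and CNT), Nedd4l (all but OMCD and CNT) and Prss8 (all but PTS3 and PTS1). It was 11 for Sgk1 (all but GL, ATL and CNT) and 14 for Tsc22d3. As background, from 0.681% to 21.2% of all genes were called higher in CCD than in another group, depending on that group; the range was 4.5% to 33.7% for OMCD, 2.93% to 19.2% for IMCD and 3.94% to 7.23% for PTS2. Without the 5 groups rich in odorant and vomeronasal receptor genes, 7 of the remaining 9 groups were exceeded for the 7 genes with a count of 12, 8 of 9 for Sgk1 and 9 of 9 for Tsc22d3.

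The 5 borders along the distal nephron were compared in turn. From CTAL to DCT 3 members were called, all higher in DCT, against 4.35% of all genes (2.01% higher in DCT and 2.34% higher in CTAL). Scnn1g rose by 7.97 ± 0.16 (SE, log2; limma adjusted p = 1.88e-35), Scnn1b by 7.63 ± 0.21 (adjusted p = 1.86e-30) and Hsd11b2 by 6.32 ± 0.20 (adjusted p = 1.07e-27). Scnn1a differed by 0.50 ± 0.24 (adjusted p = 0.322), with no overlap of mice. It passed the p threshold, but not the size threshold, with every piece as a sample (0.0484) and with only these groups in the fit (0.014). Prss8 was lower in DCT with no overlap of mice (-0.72 ± 0.21, adjusted p = 0.0204), past the p threshold but under the size threshold; it missed the p threshold without CTAL mouse 2, DCT mouse 2 or DCT mouse 3 (adjusted p = 0.0519, 0.137 and 0.0921), with a pseudocount of 0.1 (0.0578) and after quantile normalization (0.0663). This is the border where the channel's beta and gamma transcripts appeared beside an alpha transcript already present. The median difference was 0.74 over the 9 members and -0.01 over all genes. Sgk1 differed by 1.44 ± 0.51 with adjusted p = 0.076, and was called when every piece was taken as a sample (adjusted p = 0.00164), when only these groups entered the fit (0.00879) and with the filter at 5 TPM (0.0449). At this border the thick limb list of Umod and Slc12a1 summed to 40010 to 45349 TPM in CTAL and 1379 to 2245 TPM in DCT, and the principal and intercalated lists were higher in DCT, as given for these groups; their part in the members' differences was not tested.

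From DCT to CNT 6 members were called, all higher in CNT, against 5.22% of all genes (3.7% higher in CNT and 1.52% higher in DCT). Hsd11b2 rose most, by 3.71 ± 0.23 (limma adjusted p = 3.82e-17), followed by Sgk1 at 3.15 ± 0.57 (adjusted p = 5.15e-05), Nedd4l at 1.96 ± 0.16 (adjusted p = 2.01e-13), Scnn1b at 1.92 ± 0.23 (adjusted p = 1.61e-08) and Scnn1g at 1.501 ± 0.18 (adjusted p = 1.32e-08). Scnn1a (0.80 ± 0.27, adjusted p = 0.0444) and Prss8 (0.87 ± 0.24, adjusted p = 0.00871) were higher in CNT past the p threshold but under the size threshold. Neither held throughout: Scnn1a missed the p threshold when any 1 of the 6 mice was left out (adjusted p = 0.0856 to 0.145), and Prss8 without DCT mouse 2 (0.053). Under median ratio rescaling and quantile normalization the adjusted p was 0.556 and 0.296 for Scnn1a and 0.141 and 0.153 for Prss8. Scnn1a also missed it with a pseudocount of 0.1 (0.456), with no filter (0.064) and with the replicate block (0.05). Beta and gamma ENaC, the enzyme, the kinase and the ligase that opposes the channel thus rose at the same border. Nr3c2 was called at 1.04 ± 0.30 (adjusted p = 0.015), but this call was lost without CNT mouse 1, CNT mouse 3 or DCT mouse 2 (adjusted p = 0.053, 0.0525 and 0.0619) and under both other scalings (log2 difference 0.70, adjusted p = 0.247, and 0.72, adjusted p = 0.324). Tsc22d3 had nearly the same level on both sides (-0.01 ± 0.34, adjusted p = 1.0). The median was 1.501 over the members and 0.02 over all genes. Cell markers moved at this border as well. The principal cell list summed to 219 to 276 TPM in DCT and 9371 to 13714 TPM in CNT, and the intercalated list to 950 to 1050 and 6287 to 6659 TPM. The DCT list of Slc12a3 and Pvalb summed to 5863 to 6398 TPM in DCT and 0.04 to 0.925 TPM in CNT, and the thick limb list of Umod and Slc12a1 to 1379 to 2245 and 109 to 188 TPM. The part of these cells in the members' differences was not tested.

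From CNT to CCD 0 members were called by limma, against 1.12% of all genes (0.681% higher in CCD and 0.438% higher in CNT); 2 had an unadjusted p under 0.05. The 3 subunits, Nr3c2 and Hsd11b2 differed by 0.10 to 0.28 with SE of 0.16 to 0.27. Sgk1 differed most, by -1.16 ± 0.51 (adjusted p = 0.51), Nedd4l by 0.44 ± 0.14 (adjusted p = 0.12) and Prss8 by 0.32 ± 0.21. The CNT and CCD mice did not overlap for Nr3c2, Nedd4l and Prss8. With only these groups in the fit, these genes passed the p threshold but not the size threshold (limma adjusted p = 0.0364, 0.0153 and 0.00499). With every piece as a sample Nedd4l passed it as well (0.0475). The Sgk1 difference ran from -1.57 to -0.64 when each mouse was left out in turn. The principal cell list summed to 9371 to 13714 TPM in CNT and 21547 to 27437 TPM in CCD, and its part in these values was not tested.

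From CCD to OMCD 1 member was called, against 12.1% of all genes (10.4% higher in OMCD and 1.73% higher in CCD). Scnn1a fell by 1.17 ± 0.22 (limma adjusted p = 9.68e-05), and no OMCD mouse reached the lowest CCD mouse. Scnn1b (-0.94 ± 0.19, adjusted p = 0.000269), Scnn1g (-0.77 ± 0.15, adjusted p = 0.000128) and Hsd11b2 (-0.54 ± 0.19, adjusted p = 0.0267) were lower past the p threshold but under the size threshold. Tsc22d3 was higher in OMCD, likewise past the p threshold only (0.86 ± 0.28, adjusted p = 0.0197). Hsd11b2 missed the p threshold without CCD mouse 4, OMCD mouse 1 or OMCD mouse 2 (adjusted p = 0.0509, 0.127 and 0.0507), and after quantile normalization (0.194). Tsc22d3 missed it without OMCD mouse 1 or OMCD mouse 2 (0.0953 and 0.0849). With a pseudocount of 0.1, Hsd11b2, Scnn1b and Scnn1g missed it as well (0.358, 0.0631 and 0.135). Nr3c2 differed by 0.16 ± 0.25 (adjusted p = 0.653). The median over all genes was 0.30 and that over the members -0.45. Scnn1a differed by -1.25 after median ratio rescaling and by -1.12 after quantile normalization, which brought the median of all genes to 0.00. Odorant and vomeronasal receptor genes also differed in number between these segments (at most 3 in CCD pieces and 73 to 253 in OMCD pieces), and their part in the differences was not tested. Cell markers moved at this border too. Slc26a4, the anion exchanger pendrin of type B intercalated cells, fell by 8.92 ± 0.31 (adjusted p = 2.37e-26), from 1769 ± 364 TPM in CCD to 4.4 ± 4.2 TPM in OMCD (SD, n = 5 and 4), whereas Slc4a1, the exchanger of type A cells, averaged 496 ± 45.9 and 1582 ± 258 TPM. The intercalated list as a whole summed to 4446 to 5867 TPM in CCD and 3143 to 4214 TPM in OMCD, the principal cell list to 21547 to 27437 and 40083 to 57683 TPM, and the connecting tubule list to 424 to 541 and 20.6 to 57.4 TPM. The part of these cells in the members' differences was not tested. Of all genes called, 85.7% were higher in OMCD, 80.2% after median ratio rescaling and 43.6% after quantile normalization.

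From OMCD to IMCD all 9 members were called, against 18.6% of all genes (3.4% higher in IMCD and 15.2% higher in OMCD). Of the 7 that fell, Hsd11b2 differed by -9.24 ± 0.21 (limma adjusted p = 1.43e-33), Scnn1b by -9.16 ± 0.22, Scnn1g by -8.93 ± 0.17 and Scnn1a by -6.997 ± 0.25. The differences were -2.72 ± 0.15 for Nedd4l, -2.36 ± 0.28 for Nr3c2 and -1.99 ± 0.22 for Prss8, with adjusted p of at most 2.76e-09 for each of these 7 genes. The other two members moved the opposite way: Sgk1 rose by 2.76 ± 0.53 (adjusted p = 4.66e-05) and Tsc22d3 by 2.32 ± 0.32 (adjusted p = 1.07e-07). For each of the 9 genes no IMCD mouse overlapped an OMCD mouse. The share of all genes without such overlap was not computed, and 31.7% of all genes differed at a limma adjusted p under 0.05 of any size at this border. The median was -2.72 over the members and -0.32 over all genes. Of the genes called, 18.3% were higher in IMCD, 31.2% after median ratio rescaling and 54.1% after quantile normalization, and the direction of all 9 members was kept under each. Cell markers moved at this border: the intercalated list summed to 3143 to 4214 TPM in OMCD and 0.417 to 5.82 TPM in IMCD, and the principal cell list to 40083 to 57683 and 28216 to 34911 TPM. The descending thin limb list (Aqp1, Fst, Slc14a2) summed to 1402 to 2681 TPM in IMCD, nearly all of it the urea transporter gene Slc14a2 (2182 ± 685 TPM, against 1.74 TPM in OMCD), which is also known from the inner medullary collecting duct itself. Aqp1 and Fst, the other two genes of that list, were near 0 in IMCD (0.847 ± 1.05 and 0.333 TPM) and in OMCD (3.51 ± 5.11 and 1.21 TPM). Odorant and vomeronasal receptor genes reaching 1 TPM numbered 73 to 253 in OMCD pieces (median 96) and 3 to 144 in IMCD pieces (median 4). The part of these genes and of intercalated and principal cells in the members' differences was not tested.

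**Figure D3:**
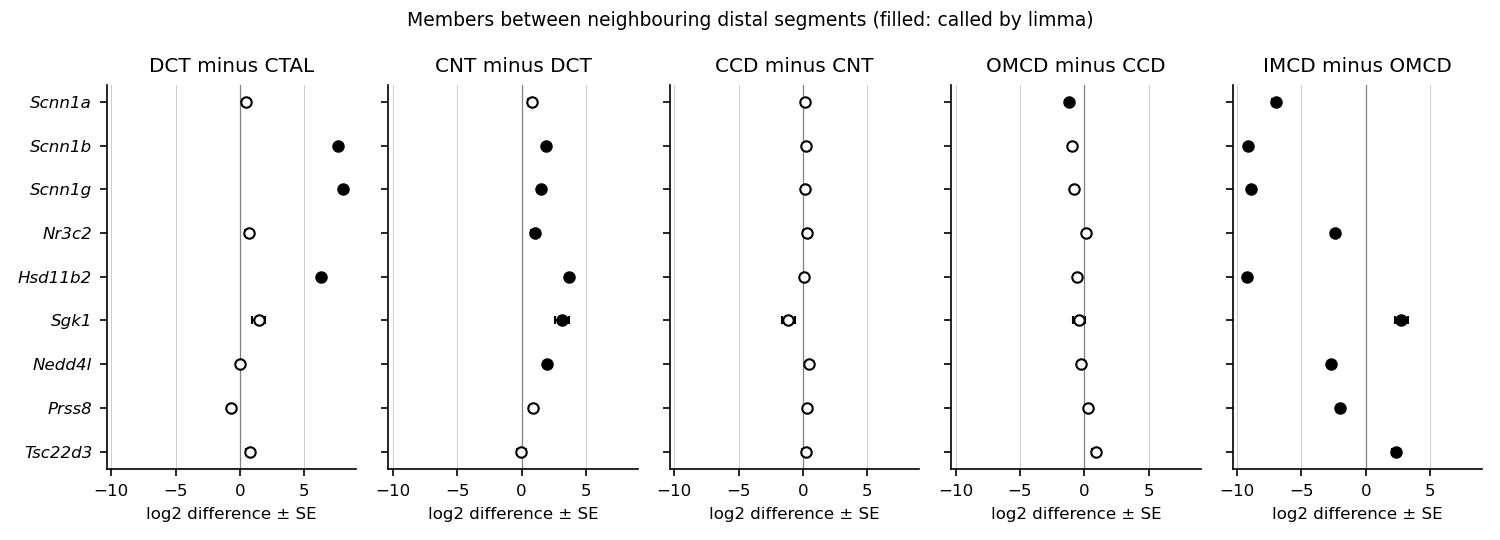
Log2 difference ± SE of the 9 genes at the 5 borders between neighbouring distal groups; filled points passed both thresholds and open points did not. From CNT to CCD no point is filled, and from OMCD to IMCD only Sgk1 and Tsc22d3 lie to the right of 0.

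Ratios within a mouse do not depend on the scaling of that mouse beyond the added 1. Scnn1a stood at 0.728 times Scnn1b in DCT, 0.334 times in CNT, 0.328 times in CCD and 0.28 times in OMCD. Against Scnn1g the values were 0.657, 0.404, 0.412 and 0.313. Scnn1b passed Scnn1g between DCT (0.903) and CNT (1.21). At the DCT to CNT border the mice of the 2 groups did not overlap in any of these 3 ratios, but 3 against 3 mice cannot go below p = 0.1 in an exact two-sided permutation test, and each gave that value. From CCD to OMCD the log2 ratio of Scnn1a to Scnn1g fell by 0.40 and that of Nr3c2 to Nr3c1 by 0.53; each reached p = 0.0159, the smallest that an exact two-sided permutation test of 5 against 4 mice can give. After adjustment over 12 such tests these became 0.0952, and none of the 12 passed 0.05.

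**Figure D4:**
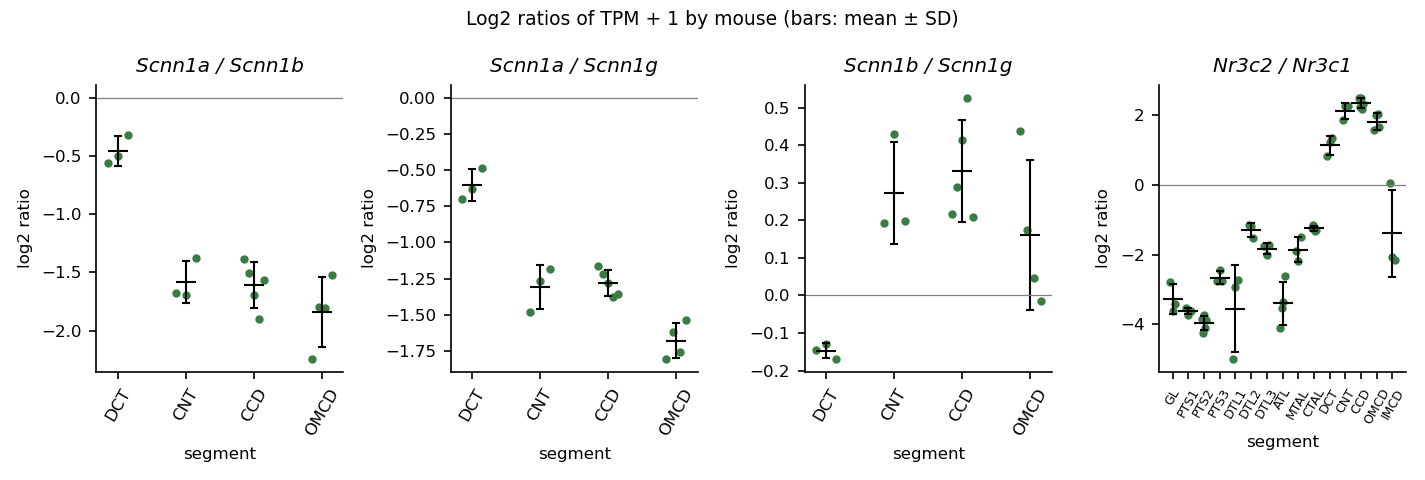
Log2 ratio of TPM + 1 for subunit pairs in DCT, CNT, CCD and OMCD and for Nr3c2 against Nr3c1 in all 15 groups; points are mice, black marks the mean ± SD, and the vertical axes differ. The alpha subunit is below its partners in all 4 segments, and Nr3c2 exceeds Nr3c1 in DCT, CNT, CCD and OMCD.

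The rest of the pathway was followed through 52 genes, of which 49 passed the filter; Cyp11b2, which makes aldosterone in the adrenal gland, and the degenerin family genes Asic4 and Asic5 did not. From CTAL to DCT 5 rose and 3 fell (median -0.09), from DCT to CNT 5 rose and 6 fell (0.25), and from CNT to CCD 1 rose and 4 fell (0.02). From CCD to OMCD 4 rose and 8 fell (0.03), and from OMCD to IMCD 3 rose and 14 fell (-0.40). The all-gene medians and the shares of all genes called are given above for the same borders. The 9 members are not among these 52 genes.

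Of the 15 kinases and ligases, Wnk1, a kinase that regulates salt transport, rose by 2.96 ± 0.22 from CTAL to DCT (limma adjusted p = 7.02e-15), where it averaged 1012 TPM, and fell by 3.58 ± 0.25 from DCT to CNT. Sgk2, a relative of Sgk1, averaged 126 TPM in DCT, 46.2 TPM in CCD and 0.429 TPM in OMCD, a difference of -5.05 ± 0.24 at the last border (adjusted p = 2.9e-21). In IMCD, where Sgk1 was highest, Sgk2 averaged 0.0789 ± 0.0135 TPM (SD, n = 3). Sgk3 fell by 2.18 ± 0.26 from OMCD to IMCD (adjusted p = 2.25e-09). Usp2, a deubiquitinase that acts on ENaC, fell by 1.54 ± 0.37 from CCD to OMCD (adjusted p = 0.00174) and differed by -3.64 ± 0.42 from OMCD to IMCD (adjusted p = 1.25e-09). Nedd4, the close relative of Nedd4l, was called at none of the 5 borders, and its highest mean was 313 TPM in GL.

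Among the 9 receptor and hormone access genes 8 were tested, and 3 were called from OMCD to IMCD, against 18.6% of all genes. The chaperones Hsp90aa1 and Hsp90ab1, which hold steroid receptors ready to bind hormone, rose by 1.96 ± 0.19 and 1.02 ± 0.20 (limma adjusted p = 1.05e-11 and 7.32e-05). Fkbp5, a co-chaperone induced by glucocorticoids, fell by 3.17 ± 0.47 (adjusted p = 3.9e-07), to 3.52, 5.33 and 3.95 TPM in the IMCD mice. Of the 6 other hormone-regulated genes, 4 fell from OMCD to IMCD and 0 rose, against 15.2% and 3.4% of all genes. The 4 were Ndrg2, a substrate of Sgk1-type kinases (-3.96 ± 0.35, adjusted p = 1.09e-12), Zbtb16 (-2.13 ± 0.45, adjusted p = 0.000177), Lcn2 (-1.84 ± 0.33, adjusted p = 1.58e-05) and Edn1 (-1.08 ± 0.31, adjusted p = 0.00586). Sgk1 and Tsc22d3 rose at this same border, so the hormone-regulated genes did not move in 1 direction.

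Of the 7 proteases and inhibitors, 1 or 2 were called at each border, against 1.12% to 18.6% of all genes, depending on the border. Klk1, tissue kallikrein, averaged 48966 TPM in DCT, 4226 TPM in CNT, 133 TPM in CCD and 0.346 TPM in OMCD. Prss22 rose by 2.24 ± 0.18 from CCD to OMCD (limma adjusted p = 3.2e-13) and fell by 3.08 ± 0.21 to IMCD. St14, which encodes matriptase, the partner of prostasin, was called at none of the borders, at 311 TPM in CNT, 336 TPM in CCD and 342 TPM in OMCD.

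Of 10 transport partners, the potassium channel gene Kcnj1, which carries potassium secretion beside ENaC, fell by 10.17 ± 0.26 from OMCD to IMCD (limma adjusted p = 1.12e-31), together with the ENaC subunits. Fxyd2, a sodium pump subunit, fell by 4.92 ± 0.16 from CCD to OMCD (adjusted p = 8.8e-27), where the potassium channel gene Kcnj10 fell by 1.73 ± 0.19 (adjusted p = 2.06e-09). From OMCD to IMCD Fxyd2 rose by 8.71 ± 0.18 (adjusted p = 3.93e-35), while Fxyd4, another pump regulator, fell by 2.79 ± 0.48 (adjusted p = 7.52e-06). From DCT to CNT the sodium chloride cotransporter gene Slc12a3 fell by 12.13 ± 0.36 (adjusted p = 3.39e-28), at the border where beta and gamma ENaC rose. Of the 5 degenerin family genes 3 were tested, and Asic1 rose by 1.84 ± 0.24 into OMCD (adjusted p = 1.7e-07), where it averaged 9.79 ± 2.06 TPM (SD, n = 4).

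The genes most like each member were taken by Pearson r of log2(TPM + 1) over the 53 mice, among 12071 genes, as a description; the mice share segments, which sets most of each r. Scnn1b, Scnn1g and Hsd11b2 shared the ammonia transporter genes Rhbg and Rhcg: Rhcg had r = 0.993 with Scnn1b, 0.996 with Scnn1g and 0.993 with Hsd11b2. Rhcg is known from intercalated as well as principal cells, and averaged 3238 TPM in CCD and 1.27 TPM in IMCD. Among the genes most like Scnn1a were Defb1 (r = 0.961) and Kcnj1 (0.945), the potassium channel gene named above. Nr3c2 was closest to Prkab1 (0.934), Nedd4l to Mcoln3 (0.862), Prss8 to Cth (0.862), Sgk1 to Myzap (0.873) and Tsc22d3 to Hey1 (0.836). Tmem200b, highest in IMCD at 135 TPM, was among the 3 genes most like Sgk1 (0.855) and among those most like Tsc22d3 (0.822). Over the 37 mice outside GL, DTL1, DTL2, DTL3 and ATL these values ranged from 0.848 to 0.998. The likeness of Rbm47, among the 3 genes most like Prss8, did not hold there: its r was 0.851 over all mice and 0.618 without those groups.

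Over the 15 group means the members varied in how closely they followed the beta subunit, again as a description. Scnn1b had r = 0.998 with Scnn1g, 0.988 with Hsd11b2, 0.782 with Nedd4l and 0.77 with Nr3c2. Scnn1a had r = 0.792 with Scnn1b. Sgk1 reached only 0.283 with Scnn1b, Prss8 0.043 and Tsc22d3 -0.088. Over the 10 groups without GL, DTL1, DTL2, DTL3 and ATL the values with Scnn1b were 0.99 for Hsd11b2, 0.846 for Nedd4l, 0.817 for Nr3c2, 0.764 for Scnn1a, 0.548 for Sgk1, -0.289 for Prss8 and 0.06 for Tsc22d3, so those of Sgk1 and Prss8 moved most.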

How the data were processed

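Per the labels' protocols, the kits were Direct-zol for RNA, SMARTer V4 for cDNA and Nextera XT for libraries. The values are TPM as deposited by the authors; the submitters' processing notes name STAR 2.5.4a, RSEM 1.3.0, Cell Ranger 3.0.2 and Seurat, and the build and annotation are not given in the sources used here. The 93 sample columns summed to 999998.6 to 1000190.3 TPM. The name of 1 PTS2 column gives its group and a mouse number, but its piece letter matches no sample label. It entered as 1 more PTS2 mouse, kept without a number. The authors' group means were not used (that of PTS1 differed from its samples for 17956 genes), and 3 single-cell samples were not analysed here.

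The log2(TPM + 1) values of pieces were averaged per mouse number and segment, and genes with at least 1 TPM in at least 3 mice were kept (33793). limma 3.58.1 in R 4.3.3 gave a moderated F-test, contrasts between groups and Benjamini-Hochberg adjusted p over all genes kept; the code was tested on simulated data. Log2 ratios were compared by exact two-sided permutation tests in SciPy 1.17.1. Mouse numbers were not taken to pair segments, and the mice of each segment were treated as separate animals. Deviations of same-numbered mice at the borders compared correlated at -0.104 to 0.186. Alternatives were pseudocounts of 0.1 and 5, a filter of 5 TPM or none, median ratio and quantile scaling, other averaging of pieces, a replicate block, only the groups compared, leaving out each mouse and, added after seeing the data, leaving out 5 groups.

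The genes named are the 9 members, genes of 6 pathway lists of 52 genes, genes of the lists of cell type markers, and some of the 3 genes most like each member with at least 10 TPM in their highest group; genes named Gm, Rik, mt-, Rpl, Rps and -ps were passed over. Of the genes most like a member, 1 is not reported here. Members and lists were chosen with earlier results of these data known. Start regions and neighbours came from RefSeq, GRCm38.p6, and served only for sequence and gene order.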

Additional observations from a re-analysis of the deposited data

Results flagged for a closer look

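In groups of 4 or 5 mice, a mouse far from the others was looked for on the log2(TPM + 1) scale in 45 combinations of gene and group; chance gives about 1 in 20 such groups, and 2 were found, both in ATL. Sgk1 in ATL mouse 3 was 448.37 TPM, against 1195 to 1455 TPM in the other 3 mice, a gap of 0.833 of the whole range on the log2 scale, where 0.829 is the limit for 4 mice. On TPM themselves the gap was 0.742 of the range, under that limit. Tsc22d3 was highest in that same mouse (446 TPM, against 143 to 230 TPM). Scnn1b in ATL mouse 6 was 0.64 TPM, against 0 to 0.07 TPM in the others, a gap of 0.863 of the range on the log2 scale and 0.891 on TPM, at a level under 1 TPM; 659 odorant and vomeronasal receptor genes reached 1 TPM in that mouse. On TPM a mouse also stood apart for Tsc22d3 in CTAL, where mouse 1 held 57.48 TPM against 28.4 to 35.98 TPM in the other 4, a gap of 0.74 of the range where 0.71 is the limit for 5 mice.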

How the results depend on the processing

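Of 45 differences between neighbouring distal groups, 3, 6, 0, 1 and 9 were called at the 5 borders in the main fit. Of all 45, 41 stayed called or stayed uncalled under every alternative, and 0 changed sign while called. The exceptions were Nr3c2 from DCT to CNT and Sgk1 from CTAL to DCT, described above, Scnn1b from CCD to OMCD (called at -1.02 after median ratio rescaling) and Tsc22d3 from CCD to OMCD (0.86, called at 1.08 without OMCD mouse 3). For these reasons the members called from CCD to OMCD numbered 2 instead of 1 under median ratio rescaling and 1 to 2 when each mouse was left out in turn. Nr3c2 from DCT to CNT was also under the size threshold with a pseudocount of 5 (0.94). The p threshold alone was crossed more often. Besides the cases given above, Tsc22d3 passed it from CTAL to DCT with every piece as a sample (limma adjusted p = 0.00599). From CCD to OMCD, Nedd4l passed it under median ratio rescaling (0.0103) and with only these groups in the fit (0.012). Prss8 passed it there with only these groups (0.019) and without the 5 groups (0.0384), and Sgk1 with every piece as a sample (0.0456). A filter of 5 TPM gave 17910 genes differing among groups of 18579 tested, since fewer genes were tested. Without GL, DTL1, DTL2, DTL3 and ATL, an alternative chosen after seeing the data, the highest group exceeded 7 of 9 others for Scnn1a, Scnn1b, Scnn1g, Nr3c2, Hsd11b2, Nedd4l and Prss8, 8 of 9 for Sgk1 and 9 of 9 for Tsc22d3; the members called at each border numbered the same as with all groups. With mouse number as a replicate block 31815 genes differed among groups, the number of members called was the same at each border, and 4319 instead of 4095 genes were called from CCD to OMCD. Depth is unknown, so levels near 0 TPM cannot be told from absence.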
